A study of Rhinolophus ferrumequinum with 8 samples.

Results

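Translation initiation factors are the proteins that bring the small ribosomal subunit, the initiator tRNA and an mRNA together at a start codon. The genes described here are the 47 rows of the expression table whose symbol begins with EIF and a digit from 1 to 6, leaving out the 4 eIF2 alpha kinases (EIF2AK1 to EIF2AK4), which are enzymes that act on a factor. Of the 19652 genes in the table, 13542 averaged 1 or more across libraries and were tested. All 47 EIF genes were among them, so this filter removed none.

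Initiation runs in steps that the gene families follow. The eIF2 complex delivers the initiator tRNA, eIF2B recharges eIF2 with GTP, eIF3 organises the small subunit, and eIF1, eIF1A and eIF5 police start codon choice. The eIF4 factors recognise the mRNA cap and unwind the leader, while the 4E-BPs hold the cap binder eIF4E inactive until the kinase complex mTORC1 phosphorylates them. Protein synthesis is known to be strongly reduced in torpid mammals, in part through phosphorylation of these proteins, which RNA levels do not report. Some members are initiation factors in name only: EIF4A3 belongs to the exon junction complex, EIF5A works mainly in elongation, and EIF1AD only shares a domain with eIF1A.

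The tissue was the spleen, taken whole from wild-caught females of the greater horseshoe bat (Rhinolophus ferrumequinum), with 2 biological replicates in each of 4 states. Bats in torpor, the cold and inactive phase of hibernation, in arousal (2 h after capture) and in the winter active state (26 h after capture) were sampled in November. Summer active bats were sampled in July. Libraries are named by state and replicate number. Levels are the deposited values, labelled TPM, a unit defined per transcript length. Their columns do not share a total and are taken as rescaled TPM, and comparisons of levels between genes rest on that label. Differences are on the log2(value + 1) scale, with standard errors (SE) and Benjamini-Hochberg adjusted p-values over all 13542 genes from limma, a linear model that pools information across genes. A gene passed at an adjusted p under 0.05. Values after ± are SDs over the 2 libraries of a state. Groups are said not to overlap when both libraries of one state lie above both of the other. In bulk tissue, fewer cells of a type and less RNA per cell cannot be told apart. The p-values weigh a difference between states against the spread between the 2 replicates within states.

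Read counts are not part of the table, and the depth of each library is therefore unknown. Over all tested genes the 2 replicates correlated at r = 0.959 for torpor, 0.937 for arousal and 0.959 for winter active, and at 0.915 for summer active. Red cell markers set summer apart: 9 of 10 listed erythroid genes were in the table, and their summed level was 76.5 to 131 in torpor, 20.0 to 25.2 in arousal and 22.1 to 51.4 in winter active, against 4068 to 5705 in summer active. B cell markers (10 of 10 genes) summed to 898 to 1141 in torpor, 702 to 1214 in arousal and 1140 to 1510 in winter active, against 2839 to 3227 in summer active. Hepatocyte markers (8 of 10 genes) reached 18336 in arousal 2 and 2422 in summer active 1, against 49.1 to 1060 elsewhere. Other libraries stood apart too: neutrophil markers (10 of 10 genes) summed to 12714 in torpor 1 and to 1070 to 3689 elsewhere, and stomach markers (4 of 5) to 1842 in winter active 2 and to 0.732 to 137 elsewhere. In the 2 summer active libraries, macrophage markers (9 of 9) summed to 14519 and 4583, and the squamous marker in the table (1 of 5) was at 0.318 and 1617. The column totals differed, from 745098 in arousal 1 to 1331820 in summer active 2. Setting each column to a total of 1000000 moved the median difference of all genes in arousal against summer active to 0.76, against 0.083 as deposited, so levels relative to all genes are given where scaling matters.

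Initiation factor mRNAs were abundant, and 2 of the 47 passed the test in any comparison. The 8-library means ran from 9.66 for EIF4E3 to 575 for EIF3K, and EIF3K, EIF1, EIF4A1, EIF3G and EIF3H were the 5 most abundant. No member passed in any comparison between November states, and neither did any other gene (0% of genes in each, limma). At an unadjusted p under 0.05, arousal against torpor had 13 members (19.7% of all genes). Winter active had 2 such members against torpor (13.2% of all genes) and 2 against arousal (5.45% of all genes). In torpor against summer active no member passed, against 0.561% of genes, and 5 members had an unadjusted p under 0.05, against 16% of genes. In winter active against summer active no member passed, against 1.03% of genes, and 2 had an unadjusted p under 0.05, against 14.8% of genes. Arousal against summer active gave 2 members, both lower, where 5.52% of genes were called and 3.14% were called lower. There 11 members had an unadjusted p under 0.05, against 28.9% of genes. The mean of the 3 November states against summer active gave 1 member, lower, where 2.92% of genes were called and 2.26% were called lower. In that comparison 8 members had an unadjusted p under 0.05, against 23.1% of genes. A limma F-test over the 4 states called no member (0.783% of genes), with 8 members at an unadjusted p under 0.05 (22.5% of genes).

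**Figure D1:**
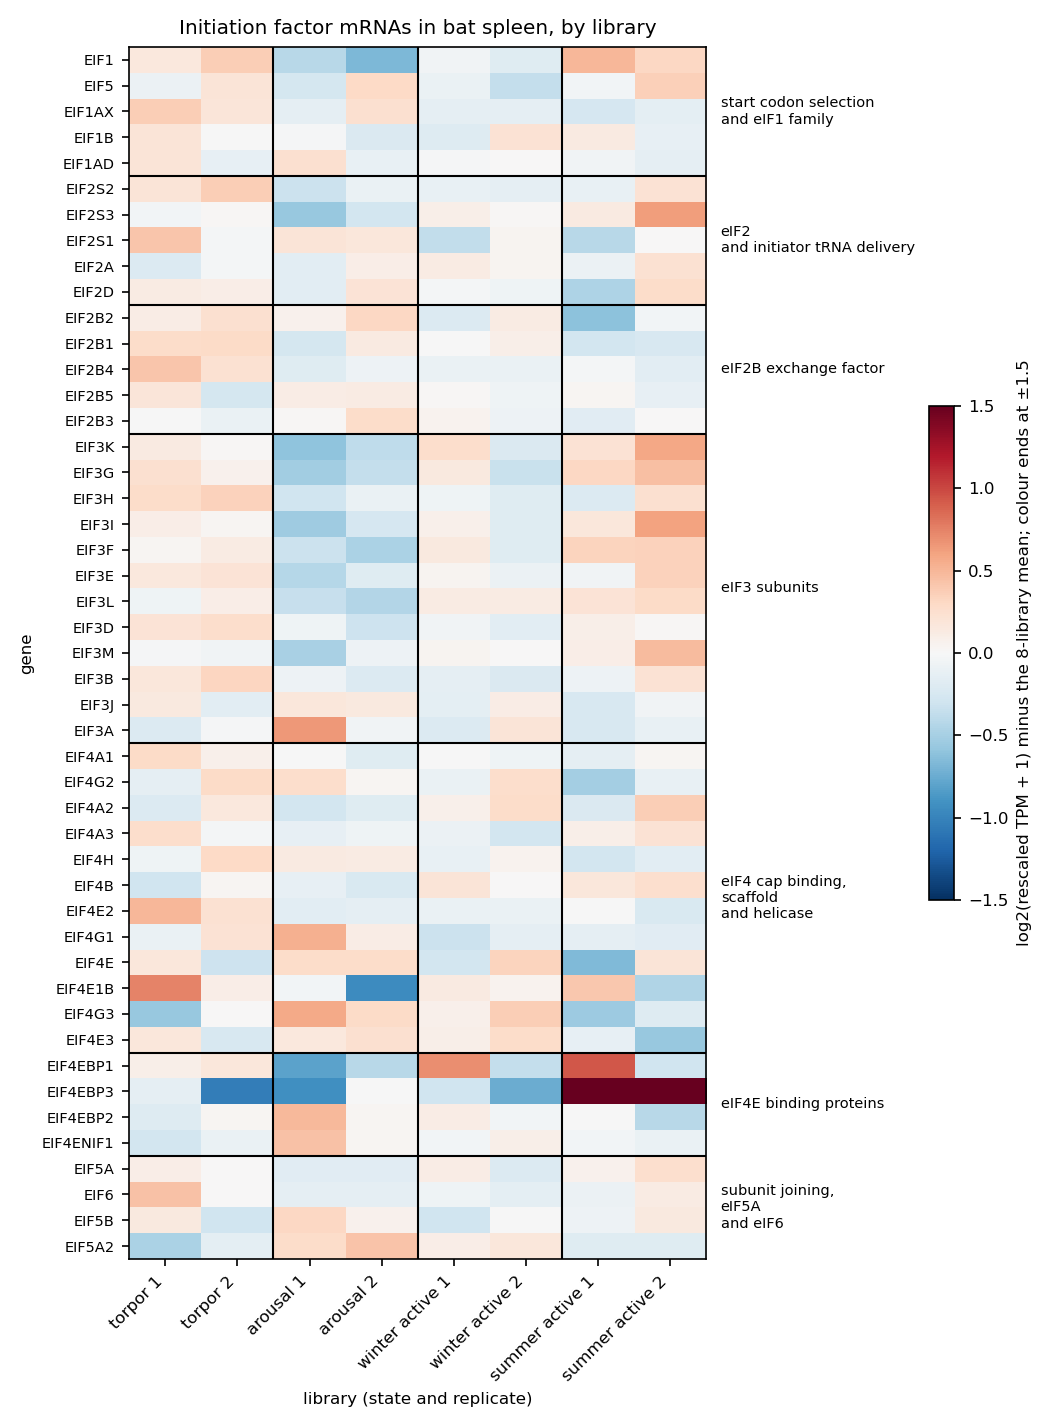
Each row is 1 of the 47 initiation factor genes, grouped by role, and each column 1 library; colour is log2(rescaled TPM + 1) minus the gene's mean over the 8 libraries, ending at ±1.5. EIF4EBP3 stands out, with 172 and 185 in summer active against 28.5 to 59.4 in November, and most eIF3 rows are palest blue to blue in the 2 arousal libraries.

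The clearest change was in a repressor of cap-dependent initiation. EIF4EBP3 (NCBI gene 117016523) encodes 4E-BP3, the third member of the family that binds eIF4E and blocks its contact with the eIF4G scaffold. It had 54.0 and 28.5 in torpor, 31.1 and 59.4 in arousal, and 48.2 and 35.0 in winter active, against 172 and 185 in summer active. All 6 November libraries lay below both summer libraries, and the 3 November states overlapped one another.

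In arousal EIF4EBP3 fell to 45.2 ± 20.0, against 179 ± 8.73 in summer active (log2 difference -2.03, SE 0.39, limma adjusted p = 0.0378). Over the 6 November libraries it fell to 42.7 ± 12.9, against 179 ± 8.73 in summer active (log2 difference -2.09, SE 0.32, limma adjusted p = 0.0224). In torpor against summer active the difference was -2.16 (SE 0.39, limma adjusted p = 0.0735) and in winter active against summer active -2.09 (SE 0.39, limma adjusted p = 0.0687), neither of which passed. These comparisons share the 2 summer libraries. The arousal call was lost without arousal 1, arousal 2, either summer active or either winter active library (adjusted p = 0.0653 to 0.144). The November call was lost without either summer active or either winter active library (adjusted p = 0.051 to 0.197). With 1 library left out at a time, its difference from summer active lay between -2.48 and -1.57 in arousal and between -2.24 and -1.94 in November. Like EIF4EBP3, the erythroid and B cell marker sums given above were higher in summer active than in November. So were S phase marker sums (10 of 10 genes), at 517 and 1034 in summer active against 281 to 407 in November. Within November, the highest EIF4EBP3 values were in arousal 2 and torpor 1, whose neutrophil marker sums were 3689 and 12714, against 1070 to 1638 in the other November libraries. Their pancreas marker sums were 845 and 1509, against 31.1 to 369 in the other November libraries. Their hepatocyte marker sums were 18336 and 795, and arousal 1, with EIF4EBP3 at 31.1, had 1060. In summer active, where EIF4EBP3 was highest, neutrophil sums were 2268 and 2454, and pancreas sums were 23.2 and 19.4. The part of these cell types in the EIF4EBP3 result was not tested.

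No other eIF4E partner passed the test, and their difference from EIF4EBP3 was not tested. EIF4EBP1, the most studied 4E-BP and the most abundant here, had 149 and 158 in torpor, 79.7 and 105 in arousal, and 228 and 109 in winter active, against 268 and 114 in summer active. Its replicates were far apart in summer active and winter active, and both arousal libraries lay below the other 6. Its mean was 92.3 ± 17.8 in arousal, against 191 ± 109 in summer active. EIF4EBP2 had 39.9 and 47.0 in torpor, 64.6 and 46.9 in arousal, and 49.7 and 44.6 in winter active, against 45.7 and 34.2 in summer active, with overlapping groups in all but arousal against summer active. EIF4ENIF1, which carries eIF4E to the nucleus and to cytoplasmic mRNA granules, had 26.1 and 19.5 in arousal against 15.6 and 17.7 in torpor (log2 difference 0.42, SE 0.21, limma adjusted p = 0.309). The ratio of EIF4EBP3 to EIF4EBP1 was 0.362 and 0.181 in torpor, 0.390 and 0.566 in arousal, and 0.212 and 0.321 in winter active, against 0.644 and 1.63 in summer active. EIF4EBP3 thus exceeded EIF4EBP1 in summer active 2 alone of the 8 libraries.

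**Figure D2:**
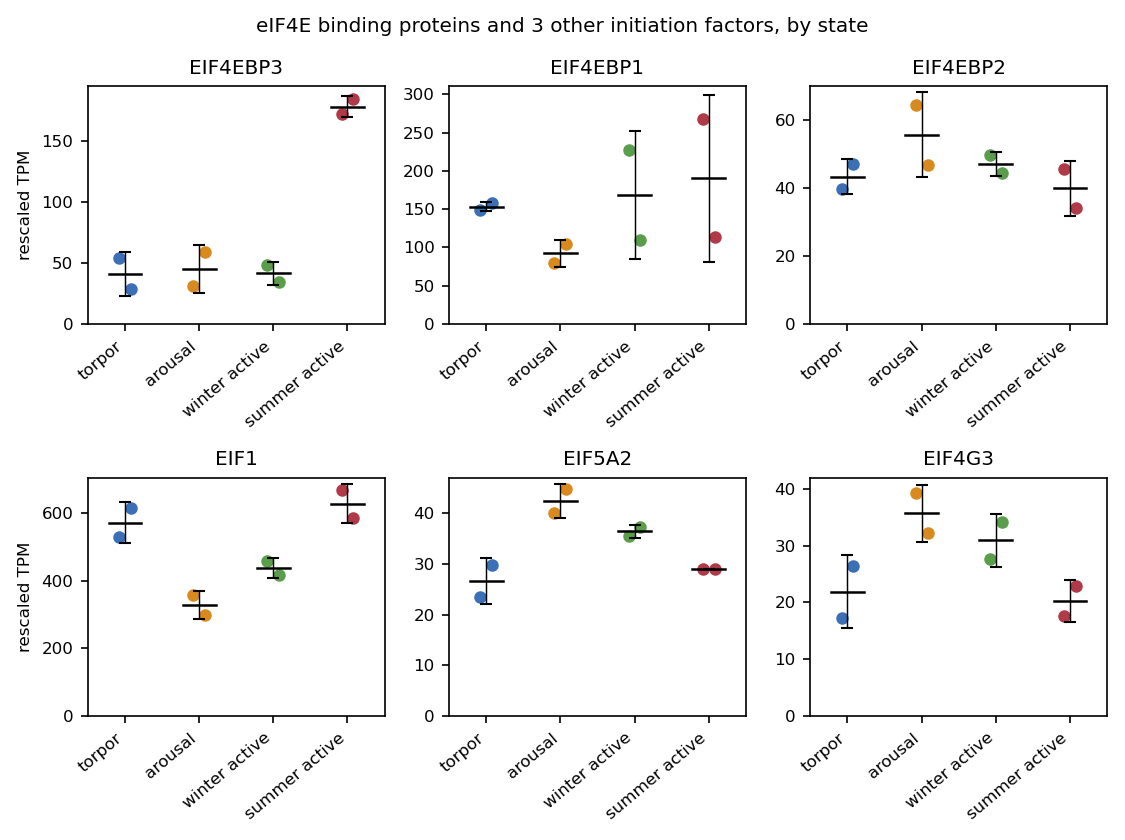
Level in rescaled TPM of 6 genes by state, from 0; points are single libraries, the horizontal line is the mean and the bar the SD (n = 2). EIF4EBP3 is at 28.5 to 59.4 in November and 172 to 185 in summer active, EIF1 is lowest in arousal (298 to 356), and EIF5A2 and EIF4G3 have their highest mean in arousal.

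Among the factors of start codon choice, EIF1 (NCBI gene 117013974) was the member with the second most abundant mRNA. Its product keeps the scanning ribosome open until a proper start codon is met. EIF1 had 528 and 614 in torpor, 356 and 298 in arousal, and 458 and 417 in winter active, against 669 and 587 in summer active. Arousal was lowest, winter active lay between arousal and the rest without overlap, and torpor and summer active overlapped. In arousal EIF1 fell to 327 ± 41.5, against 628 ± 57.9 in summer active (log2 difference -0.94, SE 0.20, limma adjusted p = 0.0441).

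The EIF1 call is near its threshold. It was lost without any 1 of the 8 libraries (limma adjusted p = 0.0715 to 0.125), and with columns set to 1000000 (log2 difference -0.17, limma adjusted p = 0.503). It was also lost under quantile normalization (log2 difference -0.59, limma adjusted p = 0.126), with no filter on low values (limma adjusted p = 0.0658) and with only the 2 states fitted (limma adjusted p = 0.149). Relative to the median of all genes, EIF1 differed by -0.93 at equal column totals, -0.61 under quantile normalization and -1.02 as deposited. In arousal against torpor EIF1 differed by -0.80 (SE 0.20, limma adjusted p = 0.148), and in winter active against summer active by -0.52 (SE 0.20, limma adjusted p = 0.295). Its paralog EIF1B stayed between 28.8 and 39.2 in the 8 libraries. The ratio of EIF1 to EIF1B was 13.7 and 18.5 in torpor, 10.8 and 10.3 in arousal, and 15.6 and 10.7 in winter active, against 18.1 and 19.0 in summer active. EIF1AX, the eIF1A gene, had 56.1 and 49.2 in torpor against 36.1 and 38.7 in summer active (log2 difference 0.48, SE 0.20, limma adjusted p = 0.297). EIF5, which triggers GTP hydrolysis by eIF2, ranged from 99.9 to 166 and EIF1AD from 19.9 to 26.0.

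The eIF3 complex is the largest initiation factor, and 12 of its subunit genes were in the table under their own symbols. EIF3C was not analysed here. Levels per length differed widely between subunits of this single complex, from 41.0 for EIF3A to 575 for EIF3K as 8-library means. In arousal against torpor 10 of the 12 subunits were lower with no overlap between the states, where 22.2% of all genes were lower without overlap. Of the 12, 7 had an unadjusted p under 0.05, against 19.7% of all genes, and none passed. The median difference of the subunits was -0.44, against 0.11 for all genes. EIF3A and EIF3J, the loosely attached subunit, were the exceptions. In arousal against summer active 9 of the 12 were lower without overlap (25.3% of all genes) and 2 were higher without overlap (32% of all genes). None passed there either, and 6 had an unadjusted p under 0.05, against 28.9% of all genes. The median difference there was -0.51, against 0.083 for all genes. That median was -0.33 without summer active 2 and -0.67 without summer active 1.

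Single subunits show the pattern. EIF3K, a small peripheral subunit, had 614 and 563 in torpor, 367 and 427 in arousal, and 672 and 478 in winter active, against 646 and 834 in summer active. Both arousal libraries lay below the other 6. EIF3G, an RNA-binding subunit, had 421 and 372 in torpor, 247 and 279 in arousal, and 394 and 282 in winter active, against 440 and 488 in summer active. Its difference was -0.59 in arousal against torpor (SE 0.22, limma adjusted p = 0.215) and -0.47 in winter active against summer active (SE 0.22, limma adjusted p = 0.368), the second of which lay between -0.72 and -0.23 with 1 library left out. EIF3L had 254 and 253 in winter active against 183 and 171 in arousal (log2 difference 0.51, SE 0.17, limma adjusted p = 0.825). EIF3B, a scaffold subunit, had 54.2 and 51.4 in winter active against 67.5 and 74.7 in torpor (log2 difference -0.42, SE 0.18, limma adjusted p = 0.384). EIF3A, the largest subunit, went the other way, with 63.4 and 38.7 in arousal against 33.7 and 37.0 in summer active. Only arousal 1 stood apart, as the other 7 libraries were at 33.7 to 46.2.

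The summed level of the 12 subunits was 2982 and 2949 in torpor, 2092 and 2234 in arousal, and 2913 and 2455 in winter active, against 2985 and 3579 in summer active. Column totals were 986814 and 998271 in torpor and 745098 and 780490 in arousal. They were 929456 and 828257 in winter active and 1276851 and 1331820 in summer active. The sums and the column totals were thus both lowest in arousal. In winter active against arousal 7 subunits were higher without overlap (18.1% of all genes). Relative to the median of all genes, the subunits' median in arousal against torpor was -0.55 as deposited, -0.51 at equal column totals and -0.18 under quantile normalization. In arousal against summer active it was -0.59, -0.50 and -0.33 under the same 3 scalings. At equal column totals the median of all genes was itself 0.45 in arousal against torpor and 0.76 in arousal against summer active. The subunits' own median was thus positive against summer active at equal totals, and only slightly negative against torpor. At that scaling the fall against summer active was relative to other genes only. Cytosolic ribosomal protein genes (75 genes, chosen for this comparison after values were seen) had the same 2 lowest libraries. Their median log2 distance from the 8-library mean was 0.20 and 0.21 in torpor, -0.63 and -0.30 in arousal, and 0.18 and -0.16 in winter active, against 0.062 and 0.52 in summer active. For the eIF3 subunits it was 0.14 and 0.079 in torpor, -0.33 and -0.23 in arousal, and 0.045 and -0.16 in winter active, against 0.097 and 0.32 in summer active.

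**Figure D3:**
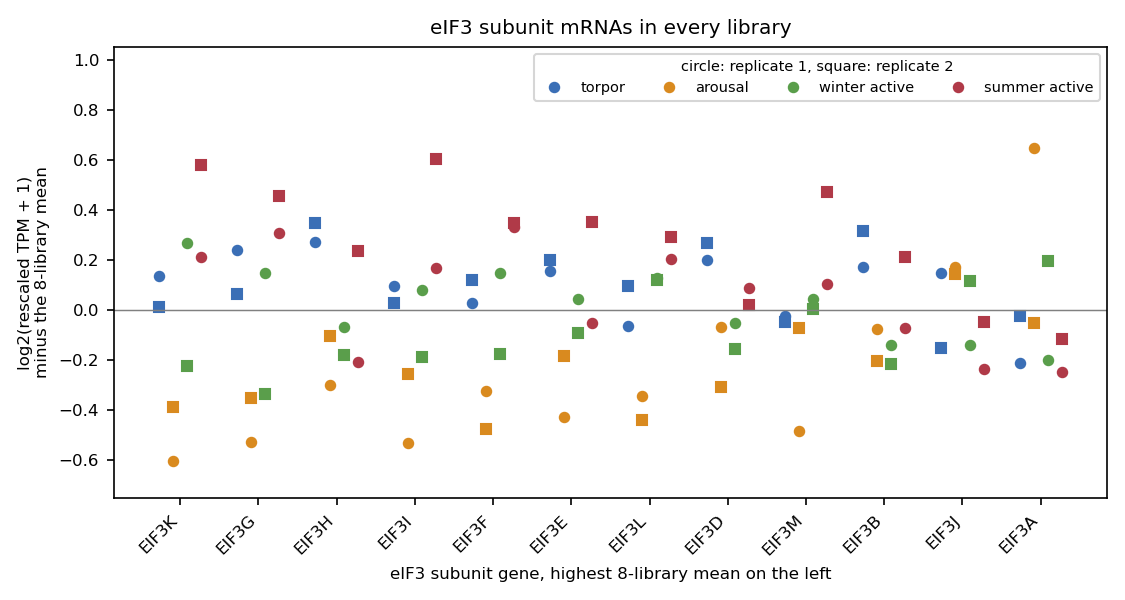
Log2(rescaled TPM + 1) minus the 8-library mean for the 12 eIF3 subunit genes, ordered from the highest mean (EIF3K, 575) to the lowest (EIF3A, 41.0); colour is the state and shape the replicate. Both arousal points lie lowest for EIF3K, EIF3G, EIF3I, EIF3F, EIF3E, EIF3L and EIF3M, and arousal 1 lies highest for EIF3A and EIF3J.

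The eIF2 complex showed no common direction. EIF2S2, the beta subunit, had 163 and 186 in torpor, 114 and 133 in arousal, and 133 and 130 in winter active, against 132 and 167 in summer active. EIF2S3, the gamma subunit that binds GTP and the initiator tRNA, had 120 and 125 in torpor, 82.8 and 101 in arousal, and 131 and 125 in winter active, against 135 and 190 in summer active. All 6 November values of EIF2S3 lay below both summer values. Its difference was -0.39 in torpor against summer active (SE 0.22, limma adjusted p = 0.426) and 0.48 in winter active against arousal (SE 0.22, limma adjusted p = 0.825). With 1 library left out at a time, the torpor difference lay between -0.63 and -0.14. EIF2S1, the alpha subunit whose phosphorylation shuts initiation down, had 64.0 and 46.5 in torpor, 54.6 and 53.8 in arousal, and 36.7 and 49.0 in winter active, against 35.5 and 47.9 in summer active. Torpor and summer active overlapped for EIF2S1. EIF2A and EIF2D, which can deliver tRNA without eIF2, ranged from 37.4 to 50.7 and from 24.9 to 42.4.

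The 5 genes of eIF2B, the exchange factor that phosphorylated eIF2 inhibits, all had positive differences in torpor against summer active (45.1% of all genes did), and 3 of them did not overlap (20.4% of all genes were higher without overlap). Their median difference was 0.42, against -0.055 for all genes, and none passed. Without summer active 1 that median was 0.22. EIF2B1, a regulatory subunit, had 66.5 and 67.1 in torpor, 45.5 and 60.2 in arousal, and 54.6 and 58.3 in winter active, against 45.3 and 46.2 in summer active. Its 2 torpor libraries were above the other 6. The difference in torpor against summer active was 0.54 (SE 0.19, limma adjusted p = 0.244). EIF2B4 had 53.7 and 47.0 in torpor, 35.2 and 38.1 in arousal, and 37.2 and 37.5 in winter active, against 39.3 and 35.6 in summer active, and differed by -0.42 in winter active against torpor (SE 0.18, limma adjusted p = 0.378). EIF2B2, the most abundant, had 86.0 and 94.0 in torpor, 82.8 and 98.6 in arousal, and 68.6 and 86.7 in winter active, against 51.5 and 77.3 in summer active. EIF2B3 and the catalytic subunit gene EIF2B5 ranged from 28.4 to 38.9 and from 30.7 to 42.1. Their differences in torpor against summer active were only 0.025 and 0.0063, and both genes overlapped there. At equal column totals the eIF2B median stood 0.51 above the median of all genes in torpor against summer active. It stood 0.47 above that median as deposited and 0.37 above it under quantile normalization.

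Of the cap-binding proteins, the canonical EIF4E had 70.4 and 50.4 in torpor, 75.6 and 75.7 in arousal, and 51.6 and 78.9 in winter active, against 39.1 and 71.8 in summer active. Only arousal was tight, and it lay above torpor and summer active. EIF4E2, a cap binder that represses rather than starts translation, had 128 and 106 in torpor, 81.2 and 82.2 in arousal, and 84.3 and 84.5 in winter active, against 89.9 and 77.1 in summer active. Both torpor libraries were above the other 6. Its difference was 0.48 in torpor against summer active (SE 0.18, limma adjusted p = 0.262), -0.51 in arousal against torpor (SE 0.18, limma adjusted p = 0.208) and -0.46 in winter active against torpor (SE 0.18, limma adjusted p = 0.354). EIF4E3 was the least abundant member, with 10.2 and 11.7 in winter active against 8.64 and 6.06 in summer active (log2 difference 0.53, SE 0.26, limma adjusted p = 0.387). EIF4E1B, a form known from mammalian oocytes, was present at 13.6 to 45.8.

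The scaffold genes, whose products join eIF4E to the ribosome, held none that passed, and differences between the paralogs were not tested. EIF4G3 had 17.3 and 26.4 in torpor, 39.4 and 32.2 in arousal, and 27.6 and 34.3 in winter active, against 17.6 and 22.9 in summer active. Arousal and winter active lay above torpor and summer active without overlap. Its difference was 0.71 in arousal against torpor (SE 0.27, limma adjusted p = 0.221), 0.79 in arousal against summer active (SE 0.27, limma adjusted p = 0.109), 0.50 in winter active against torpor (SE 0.27, limma adjusted p = 0.448) and 0.59 in winter active against summer active (SE 0.27, limma adjusted p = 0.362). EIF4G1, the main scaffold, had 54.0 and 61.3 in winter active against 98.5 and 73.2 in arousal (log2 difference -0.55, SE 0.22, limma adjusted p = 0.825). EIF4G2, a scaffold that lacks the eIF4E site, was the most abundant of the 3, with 236 and 317 in torpor, 311 and 263 in arousal, and 242 and 310 in winter active, against 182 and 240 in summer active. The ratio of EIF4G3 to EIF4G1 was 0.275 and 0.334 in torpor, 0.399 and 0.441 in arousal, and 0.511 and 0.560 in winter active, against 0.287 and 0.382 in summer active. Winter active was above the other states in that ratio.

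The next genes belong to the helicase step. EIF4A1, the main eIF4A helicase, had 503 and 436 in torpor, 411 and 363 in arousal, and 412 and 395 in winter active, against 377 and 422 in summer active. Both torpor libraries of EIF4A1 were above the other 6. EIF4A2, its paralog, had 174 and 224 in torpor, 164 and 175 in arousal, and 210 and 243 in winter active, against 172 and 258 in summer active. EIF4A1 exceeded EIF4A2 by 1.63 to 2.89 times in every library. EIF4B, which stimulates the helicase, had 80.8 and 102 in torpor, 91.2 and 84.6 in arousal, and 114 and 99.98 in winter active, against 112 and 119 in summer active. Its difference was -0.34 in torpor against summer active (SE 0.19, limma adjusted p = 0.42) and 0.23 in winter active against torpor (SE 0.19, limma adjusted p = 0.606). With 1 library left out they lay between -0.51 and -0.18 and between 0.070 and 0.40. EIF4H, with a similar role, ranged from 151 to 226, and EIF4A3 from 162 to 234.

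The late factors held no gene that passed. EIF5A2, the minor form of the hypusine-bearing factor, had 23.5 and 29.8 in torpor, 40.1 and 44.9 in arousal, and 35.6 and 37.3 in winter active, against 29.0 and 29.0 in summer active. Arousal was above winter active, and winter active above torpor and summer active, with no overlap. Its difference was 0.66 in arousal against torpor (SE 0.19, limma adjusted p = 0.174), 0.53 in arousal against summer active (SE 0.19, limma adjusted p = 0.125), 0.45 in winter active against torpor (SE 0.19, limma adjusted p = 0.38) and 0.32 in winter active against summer active (SE 0.19, limma adjusted p = 0.461). The major form EIF5A had 276 and 259 in torpor, 229 and 229 in arousal, and 278 and 222 in winter active, against 269 and 306 in summer active. The ratio of EIF5A to EIF5A2 was 11.8 and 8.68 in torpor, 5.71 and 5.09 in arousal, and 7.80 and 5.95 in winter active, against 9.28 and 10.5 in summer active. EIF6, which keeps free large subunits from joining small ones, had 170 and 125 in torpor, 113 and 113 in arousal, and 119 and 113 in winter active, against 117 and 136 in summer active. EIF5B, the GTPase of subunit joining, had 28.3 and 34.7 in winter active against 43.6 and 36.6 in arousal (log2 difference -0.34, SE 0.23, limma adjusted p = 0.828).

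Across the family, abundant members tended to have lower differences than scarce ones in several comparisons, and higher ones in winter active against arousal. Over the 47 genes the Spearman correlation of the 8-library mean level with the difference was -0.62 in arousal against torpor and -0.61 in arousal against summer active. Over all 13542 tested genes it was -0.31 and -0.10. In winter active against summer active it was -0.58 over the members and -0.091 over all genes. In torpor against summer active it was -0.25 and 0.20, and in winter active against torpor -0.30 and -0.30. In winter active against arousal it was 0.51 and 0.078. Comparisons with summer active share its 2 libraries. In the comparisons of arousal with torpor and with summer active, the correlation of the difference with gene span in the annotation was 0.39 and 0.42 for the members, and 0.43 and 0.34 for all genes. Genes in these correlations share the same libraries and are not independent replicates. Counted without overlap, in arousal against torpor 23 members were lower and 5 higher without overlap (22.2% and 31.9% of all genes), and in arousal against summer active 17 were lower and 16 higher (25.3% and 32% of all genes). At equal column totals 6 were lower and 22 higher in arousal against torpor (6.78% and 55.9% of all genes), and 1 lower and 37 higher in arousal against summer active (5.78% and 69.0% of all genes). By mean level, 4 members were lowest in torpor, 22 in arousal, 5 in winter active and 16 in summer active, where all genes had 31.2%, 23.9%, 15.5% and 29.5%. Highest were 16 members in torpor, 15 in arousal, 2 in winter active and 14 in summer active, where all genes had 19.4%, 35.3%, 16.0% and 29.3%.

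**Figure D4:**
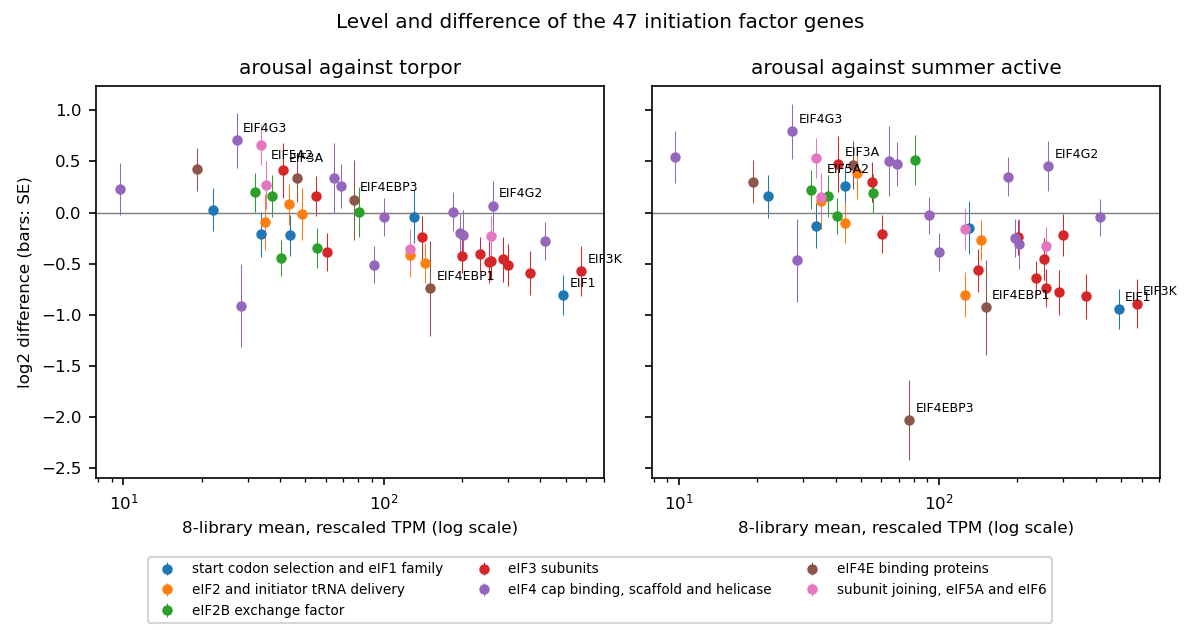
Log2 difference (bars, SE) of each of the 47 genes against its 8-library mean in rescaled TPM on a log axis, coloured by role, for arousal against torpor (left) and arousal against summer active (right). Abundant members such as EIF3K and EIF1 lie below 0 and scarce ones such as EIF4G3 and EIF5A2 above it in both panels, while EIF4EBP3 is low in the comparison with summer active.

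Genes that act on or beside the initiation factors, or in elongation, termination or mitochondrial initiation, were taken as 6 lists. They had 58 members, all of which were tested. None of the 58 passed between November states or between torpor and summer active (limma). At an unadjusted p under 0.05 there were 18 in arousal against torpor (19.7% of all genes), 11 in winter active against torpor (13.2%), 1 in winter active against arousal (5.45%) and 13 in torpor against summer active (16%). In winter active against summer active 2 passed (1.03% of all genes), in arousal against summer active 4 (5.52%), and in the November states against summer active 3 (2.92%). By the F-test 1 passed, EIF2AK1 (limma adjusted p = 0.033; 0.783% of all genes). All of these were in the list of eIF2 alpha kinases and phosphatase subunits (10 genes) or in that of mTORC1 and MNK signalling (16 genes). Poly(A)-binding proteins and other helpers (16 genes), elongation factors (8), termination factors (5) and mitochondrial initiation factors (3) gave none. Median differences in arousal against summer active were 0.29 for the kinase list, 0.13 for the mTORC1 list, 0.24 for helpers, -0.59 for elongation factors, 0.22 for termination factors and -0.23 for mitochondrial factors, against 0.083 for all genes.

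Of the 4 kinases that phosphorylate EIF2S1, EIF2AK1 and EIF2AK2 passed the test, in opposite directions. EIF2AK1 (HRI, activated when heme is short) had 57.7 and 62.5 in torpor, 39.1 and 36.0 in arousal, and 35.9 and 41.0 in winter active, against 109 and 148 in summer active. EIF2AK1 fell in arousal against summer active (log2 difference -1.74, SE 0.20, limma adjusted p = 0.0105) and in winter active against summer active (-1.70, SE 0.20, limma adjusted p = 0.0161). In the November states against summer active it differed by -1.503 (SE 0.17, limma adjusted p = 0.00726). EIF2AK2 (PKR, activated by double-stranded RNA and induced by interferon) had 2.29 and 3.18 in torpor, 7.46 and 7.34 in arousal, and 4.86 and 5.97 in winter active, against 1.29 and 0.952 in summer active. EIF2AK2 rose in arousal against summer active (log2 difference 1.99, SE 0.26, limma adjusted p = 0.0158), in winter active against summer active (1.60, SE 0.26, limma adjusted p = 0.0447) and in the November mean (1.47, SE 0.21, limma adjusted p = 0.0182). EIF2AK2 was scarce, with an 8-library mean of 4.17, and the size of its differences depends on the pseudocount. With 0.1 added in place of 1, its difference in arousal against summer active was 2.63. A filter of a mean of at least 5 leaves EIF2AK2 out. In torpor against summer active neither kinase passed. Erythroid, B cell and S phase marker sums were, like EIF2AK1, higher in summer active than in November. The part of these cells in the EIF2AK1 result was not tested.

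These kinase calls rest on few libraries. Those of EIF2AK1 and EIF2AK2 in arousal against summer active were lost without summer active 2 (limma adjusted p = 0.0663 and 0.0899), arousal 1 (0.0651 and 0.0856) or arousal 2 (0.0653 and 0.0711). In winter active against summer active, EIF2AK1 lost its call without summer active 2 or either winter active library (0.0998 to 0.148) and EIF2AK2 without any library but summer active 1 (0.0808 to 0.356). The November call was lost without summer active 2 by EIF2AK1 (0.0801), and without summer active 2, torpor 2 or winter active 2 by EIF2AK2 (0.0524 to 0.174). EIF2AK3 (PERK, the sensor of unfolded protein in the endoplasmic reticulum) had 9.51 and 9.08 in torpor, 23.5 and 19.4 in arousal, and 18.6 and 19.6 in winter active, against 13.7 and 17.4 in summer active. Torpor was lowest without overlap, and arousal against torpor differed by 1.12 (SE 0.21, limma adjusted p = 0.142). EIF2AK4 (GCN2, the amino acid sensor) ranged from 8.56 to 17.3.

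**Figure D5:**
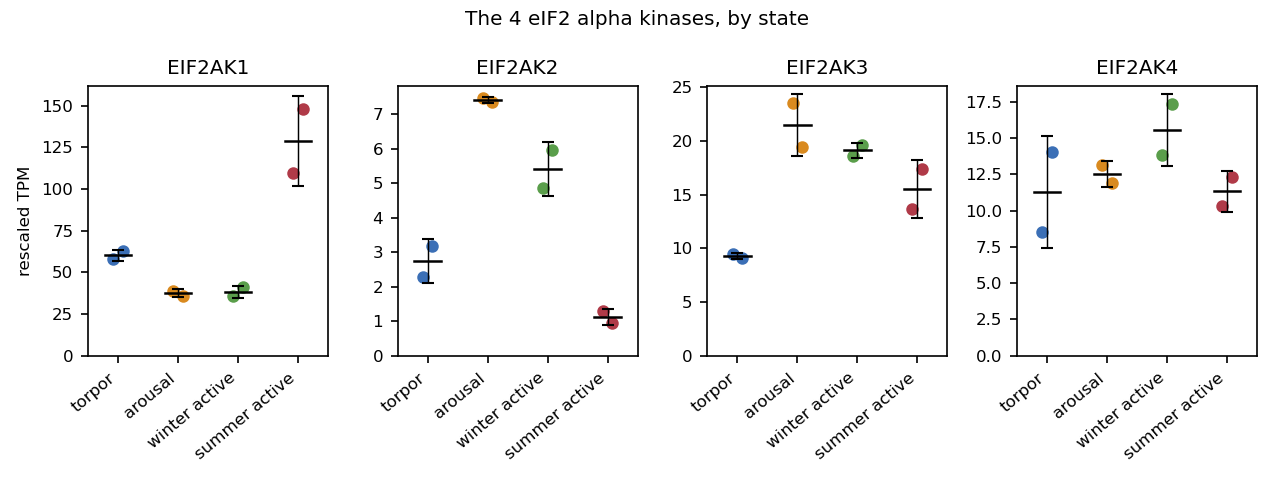
Level in rescaled TPM of the 4 eIF2 alpha kinases by state, each axis from 0; points are single libraries, lines means and bars SDs (n = 2). EIF2AK1 is highest in summer active (109 to 148), EIF2AK2 highest in arousal (7.34 to 7.46) and EIF2AK3 lowest in torpor (9.08 to 9.51).

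In the mTORC1 list, MLST8, a subunit of the complex, had 16.8 and 18.8 in torpor, 11.3 and 14.6 in arousal, and 18.4 and 13.9 in winter active, against 29.2 and 45.7 in summer active. MLST8 fell in arousal against summer active (log2 difference -1.44, SE 0.28, limma adjusted p = 0.0381) and in the November mean (-1.19, SE 0.23, limma adjusted p = 0.0423). DEPTOR, an inhibitor of mTOR, had 17.4 and 13.4 in arousal and 14.3 and 12.5 in winter active, which overlapped. It had 7.17 and 8.74 in torpor, against 6.84 and 7.17 in summer active. DEPTOR rose in arousal against summer active (log2 difference 1.02, SE 0.23, limma adjusted p = 0.0486). That call was lost with no filter (limma adjusted p = 0.0742) and with only the 2 states fitted (limma adjusted p = 0.148). It was also lost under median-of-ratios rescaling (limma adjusted p = 0.0523) and quantile normalization (limma adjusted p = 0.0722). Both MLST8 calls were lost without any library but summer active 1 (limma adjusted p = 0.0635 to 0.153 in arousal and 0.063 to 0.258 in November), and the DEPTOR call without any of the 8 (0.0706 to 0.197). TSC1, which restrains mTORC1, had 2.33 and 3.06 in torpor, 9.48 and 7.33 in arousal, and 5.30 and 6.86 in winter active, against 2.61 and 3.85 in summer active (F-test adjusted p = 0.121, limma). Among helpers, BZW2, a mimic of eIF5 that affects start codon choice, had 151 and 228 in torpor, 93.5 and 99.9 in arousal, and 105 and 154 in winter active, against 70.4 and 53.5 in summer active (F-test adjusted p = 0.109, limma). DOHH, which completes the hypusine of eIF5A, had 33.4 and 23.5 in torpor, 24.9 and 22.8 in arousal, and 20.5 and 19.0 in winter active, against 46.7 and 41.4 in summer active (F-test adjusted p = 0.124, limma). In the elongation, termination and mitochondrial lists the smallest F-test adjusted p-values were 0.169 for EEF2K, 0.236 for EEF1G, 0.257 for GSPT1, 0.291 for PELO, 0.251 for MTIF3 and 0.298 for MTFMT (limma).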

How the data were processed

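RNA sequencing of 8 whole-spleen libraries was used. Values are those of the authors' deposited gene table, a signal named TPM whose columns do not sum to 1000000 and which is taken here as rescaled TPM. The programs kallisto (0.46.2) and sleuth (0.30.0) appear among the submitters' processing notes. How transcripts were chosen, summed and rescaled is not given. All 19652 identifiers and symbols matched the RefSeq annotation of assembly mRhiFer1_v1.p, used for names, spans and overlaps only.

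Genes with an 8-library mean of at least 1 (13542) entered limma 3.58.1 (R 4.3.3) as log2(value + 1) (1 fit of all 8 libraries, eBayes with a trend, 4 residual and 3.29 prior degrees of freedom). The tests were planned for TPM and kept for the rescaled signal. Comparisons were 6 pairs of states, November against summer, and an F-test. The fit was tested on simulated data. The members and lists were chosen with earlier results of these data known, and no set test was run.

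Members given by library followed a rule: those called, those of smallest p in each direction of each pair of states, the most abundant of each role and 10 fixed genes, 29 in all; the other 18 are given by range or counts. From each list the 2 genes of smallest F-test p, any called gene and the 4 kinases are named. Alternatives were 9 changes of pseudocount, filter, scaling or model and leaving out each library. Reads may be split between paralogs (EIF4A1 and EIF4A2, EIF1 and EIF1B, EIF5A and EIF5A2). In the annotation 12 members overlap another gene, among them EIF4A2 with RFC4, EIF3I with TMEM234, EIF5A with GPS2, EIF5B with REV1 and EIF4EBP2 with LRRC20; whether counting used strand is not stated in those notes.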

Additional observations from a re-analysis of the deposited data

How the results depend on the processing

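Setting columns to totals of 1000000 changed most. It gave 30 called members in arousal against summer active (29 higher, 1 lower, 45.04% of all genes called, where 5833 of 6099 called genes were higher, against 323 of 748 as deposited), 28 in the November states against summer active (35.1% of all genes called), 1 in arousal against torpor (3.29%) and 12 by the F-test (21.98%). Member medians became 0.46 in torpor against summer active, 0.16 in arousal against torpor, 0.087 in winter active against torpor, 0.56 in winter active against summer active, 0.66 in arousal against summer active, -0.17 in winter active against arousal and 0.56 in November. It turned EIF1 (0.052) and EIF3G (0.096) in winter active against summer active, and EIF2S3 (0.0019) and EIF4B (0.047) in torpor against summer active; none of these had passed. List members called became 23 in November, 30 in arousal against summer active, 5 in arousal against torpor and 16 by the F-test. In winter active against summer active 4 list members were called (5.75% of all genes). The median of all genes became 0.29 in torpor against summer active and 0.55 in winter active against summer active.

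With no filter, more genes are tested and both member counts became 0. List counts became 2 in arousal against summer active, 0 in winter active against summer active and 0 by the F-test (0.173% of all genes). Quantile normalization left 1 member in arousal against summer active (4.56% of all genes called). Member medians became 0.0081 there, -0.053 in arousal against torpor, 0.0075 in winter active against torpor and 0.072 in November. Median-of-ratios rescaling gave medians of -0.16 in arousal against summer active, -0.34 in arousal against torpor, 0.15 in torpor against summer active and -0.21 in winter active against torpor. Only the 2 states compared gave 0 members in arousal against summer active, and 0 list members there and in winter active against summer active. A mean of at least 5 gave 1 list member in winter active against summer active, and robust eBayes 2 by the F-test (0.812% of all genes).

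Same-numbered libraries deviated from their state means with correlations of -0.19 to 0.32 over the 6 pairs of states, so the numbers are not taken to pair samples. With the replicate block the member counts stayed at 2 in arousal against summer active and 1 in November. List counts became 1 in winter active against summer active, where EIF2AK2 was lost (limma adjusted p = 0.0639), and 0 by the F-test (0.34% of all genes). DEPTOR was lost in arousal against summer active (limma adjusted p = 0.0533).

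With 1 library left out at a time, the share of all genes passing the F-test changed too. Counts of members and of list genes are therefore not compared between these fits. Member medians ranged from -0.13 to 0.0038 in arousal against summer active, -0.27 to -0.14 in arousal against torpor, -0.0030 to 0.10 in torpor against summer active, -0.15 to 0.0047 in winter active against summer active, -0.16 to -0.059 in winter active against torpor and -0.040 to 0.068 in November. List counts ranged from 0 to 3 in arousal against summer active and in November, from 0 to 2 in winter active and in torpor against summer active, and from 0 to 1 by the F-test. These fits take a lone replicate to be as variable as other groups. Of the 33 differences of named members followed this way, 11 moved by over 1.5 times and 0 changed sign. No read depth is known, so no counting error can be given.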
